A study of Mus musculus with 6 samples.

Results

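Mitochondrial ribosomal proteins are the nuclear-encoded proteins of the mitochondrial ribosome, and their genes carry the symbols Mrpl, for the large subunit, and Mrps, for the small subunit. Genes were taken by symbol: a locus was a member when a gene name listed for it was Mrpl or Mrps followed by a number and at most 1 letter. The rule found 78 loci of the 53323 in the deposited tables, 49 named for the large and 29 for the small subunit. All 78 passed the filter on low counts and were tested.

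RNA was sequenced from mouse embryonic fibroblasts, primary mesenchymal cells grown from embryos, labelled Fbxw7 KO (3 libraries) and WT (3 libraries). Both groups were cultured in DMEM with serum and non-essential amino acids. Fbxw7 is the substrate-binding subunit of a ubiquitin ligase that marks Myc, cyclin E, Notch and Jun for breakdown. The deleted exons, any Cre, the strain, the age of the embryos and whether libraries of a group came from separate cultures are not stated in the labels, so p-values measure only the spread between these libraries, which may be technical.

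The mitochondrial ribosome translates the few messages of the mitochondrial genome, which encode core subunits of the respiratory chain and of ATP synthase. Its RNAs are made inside the organelle, whereas every one of its proteins is translated in the cytosol and imported. Relative to the bacterial ribosome it has lost RNA and gained proteins, so part of the set has a bacterial counterpart and part is specific to mitochondria. NRF1 and the ETS factor GABP are known activators of nuclear genes for mitochondrial proteins.

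Deposited libraries held 55720129 to 64198455 estimated fragments. All 10 fibroblast markers were expressed, with summed levels of 31943 to 38664 CPM (fragment counts per TMM-adjusted library size) in KO and 29966 to 40276 CPM in WT. The sum hides moves of single markers: Lum (233 ± 122 CPM in KO, 13.8 ± 8.89 CPM in WT) and Dcn (1855 ± 186 CPM in KO, 631 ± 307 CPM in WT) were higher and Vim (2152 ± 148 CPM in KO, 3832 ± 646 CPM in WT; SD, n = 3 each) was lower in KO, with adjusted p of 0.00612, 0.0252 and 0.00972 (edgeR). Epithelial and skeletal muscle markers were under 1 CPM in every library, as were the endothelial Pecam1 and Cdh5, the leukocyte Ptprc, Adgre1 and Csf1r, and the neural Sox10. Summed endothelial markers reached 0.614 to 1.42 CPM in KO and 6.46 to 9.24 CPM in WT, and summed leukocyte markers 0.631 to 1.36 CPM in KO and 1.49 to 2.26 CPM in WT. The neural sum was 6.27 to 15.7 CPM in KO and 20.1 to 24.7 CPM in WT. It was nearly all Map2, as the third neural marker, Tubb3, had no locus of that name. The part of these markers in the results was not tested. Fbxw7 itself had 27.6, 27.4 and 24.1 CPM in KO and 29.5, 28.4 and 30.1 CPM in WT, a log2 fold change of −0.16 ± 0.10 (SE; adjusted p = 0.332, edgeR). A gene-level count of this kind does not check the labels when the deleted exons are unknown. Replicate 3 stood apart in both genotypes: replicates 1 and 2 differed by 6.56 times the sampling noise in KO and 7.42 times in WT, and replicate 3 differed from them by 26.8 to 42.6 times (median chi-square over genes against that of sampling alone).

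Promoter sequence was available in RefSeq (GRCm38.p6) for 69 of the 78 genes, at 75 annotated starts. The 250 bases before the start were searched on both strands for the NRF1 core TGCGCA, the ETS motif CCGGAAG and the E-box CACGTG, the last being the letters read by Myc and Max, and a gene counted when any of its starts had a match. The NRF1 core occurred in 18 of the 69 genes (26.1%), against 7.36% of all 27025 genes in that table and 9.43% of its coding genes. The ETS motif also occurred in 18 (26.1%), against 7.83% of all genes and 10.5% of coding genes. The E-box occurred in 5 (7.25%), against 6.86% of all genes and 7.81% of coding genes. NRF1 or ETS letters were found in 31 of the 69 genes, both in 5 of them, and 34 had none of the 3 motifs. Of the 7 genes that passed the test between genotypes, 5 had a promoter in the table and 4 of these held NRF1 or ETS letters. Those 4 promoters are printed here because they belong to genes whose level differed between the genotypes, with motif letters in capitals, read 5′ to 3′ on the gene's strand (plus in each case). They lie at chr16:92058086-92058335 for Mrps6, chr11:115403502-115403751 for Mrpl58, chr3:94443086-94443335 for Mrpl9 and chr14:54426659-54426908 for Mrpl52.
Mrps6: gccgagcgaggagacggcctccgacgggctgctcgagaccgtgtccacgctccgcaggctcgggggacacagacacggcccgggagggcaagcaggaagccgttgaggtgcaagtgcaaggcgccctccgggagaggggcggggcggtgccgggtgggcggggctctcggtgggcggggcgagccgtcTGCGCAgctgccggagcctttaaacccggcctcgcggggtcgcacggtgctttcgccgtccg
Mrpl58: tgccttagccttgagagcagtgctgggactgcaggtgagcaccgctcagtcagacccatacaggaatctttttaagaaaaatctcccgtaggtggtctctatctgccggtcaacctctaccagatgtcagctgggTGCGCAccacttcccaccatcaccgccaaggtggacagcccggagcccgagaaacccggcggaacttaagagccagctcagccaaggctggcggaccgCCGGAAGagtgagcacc
Mrpl9: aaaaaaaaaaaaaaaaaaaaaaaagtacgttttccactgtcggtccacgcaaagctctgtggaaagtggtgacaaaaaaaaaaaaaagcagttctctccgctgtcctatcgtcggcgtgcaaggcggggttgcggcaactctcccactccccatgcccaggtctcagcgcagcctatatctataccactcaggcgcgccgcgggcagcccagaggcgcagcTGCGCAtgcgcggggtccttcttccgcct
Mrpl52: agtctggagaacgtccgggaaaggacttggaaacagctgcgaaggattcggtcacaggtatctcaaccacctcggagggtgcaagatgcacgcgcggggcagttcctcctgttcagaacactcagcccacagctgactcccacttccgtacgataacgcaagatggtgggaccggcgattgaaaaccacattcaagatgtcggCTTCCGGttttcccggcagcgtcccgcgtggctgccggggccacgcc
Mrpl58 held both kinds of letters, an NRF1 core and, close to its start, an ETS motif. Mrps6 and Mrpl9 held an NRF1 core, and Mrpl52 an ETS motif read on the opposite strand. The fifth promoter, that of Mrpl33 at chr5:31613701-31613950, lies inside the wider GENCODE interval of that gene, not before it. None of the 3 motifs occurred in it. Motif letters thus stood before genes that were lower in KO and before genes that were higher.

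The comparison asked which mitochondrial ribosomal protein genes differ between Fbxw7 KO and WT fibroblasts. Most did not pass the test. At an adjusted p under 0.05 (edgeR quasi-likelihood test, Benjamini-Hochberg over all 16787 genes tested), 7 of the 78 passed (8.97%), against 16.1% of all genes tested. Mrpl52, Mrps35, Mrpl33 and Mrpl9 were higher in KO, 4 of 78 against 8.03% of all genes, and Mrps6, Mrpl54 and Mrpl58 were lower, 3 of 78 against 8.08% of all genes. Levels of the KO and WT libraries did not overlap for 32 of the 78 genes (41.0%), against 37.7% of all genes. KO was the higher group in 19 of these 32 and the lower group in 13, a split that was not counted over all genes. Scaled by library size alone in place of TMM factors, 8 members were higher and 2 lower, the median over all genes moved to 0.105 on the log2 scale, and 65.7% of all calls were higher in KO, against 49.8% with TMM.

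The sizes of the differences were small. The median log2 fold change over the 78 genes was 0.05 on the fragment counts, against 0.007 over all genes tested. On deposited FPKM (limma, pseudocount 1) both were below 0, at −0.022 for the members and −0.048 for all genes with the filter on low values, and at −0.022 and −0.005 without it. On the fragment counts the quartiles were −0.12 and 0.18, against −0.25 and 0.27 for all genes. The 95% interval of the fold change lay wholly within 1.5-fold of no difference for 63 of the 78 (80.8%), against 40.2% of all genes. Mrps6 alone differed by more than 2-fold (1.28% of the members, against 11.0% of all genes), and 3 genes, Mrps6, Mrpl54 and Mrps36, differed by more than 1.5-fold (3.85%, against 22.5%), Mrps36 without passing the test. At an unadjusted p under 0.05 there were 14 (17.9%), against 31.6% of all genes. The median SE was 0.117 for the members and 0.166 for all genes, which were not matched for level. Nuclear genes for respiratory chain and ATP synthase subunits had 81.3% of intervals within 1.5-fold and 2.67% of genes beyond it. The narrow spread was therefore not particular to the mitochondrial ribosomal set.

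**Figure D1:**
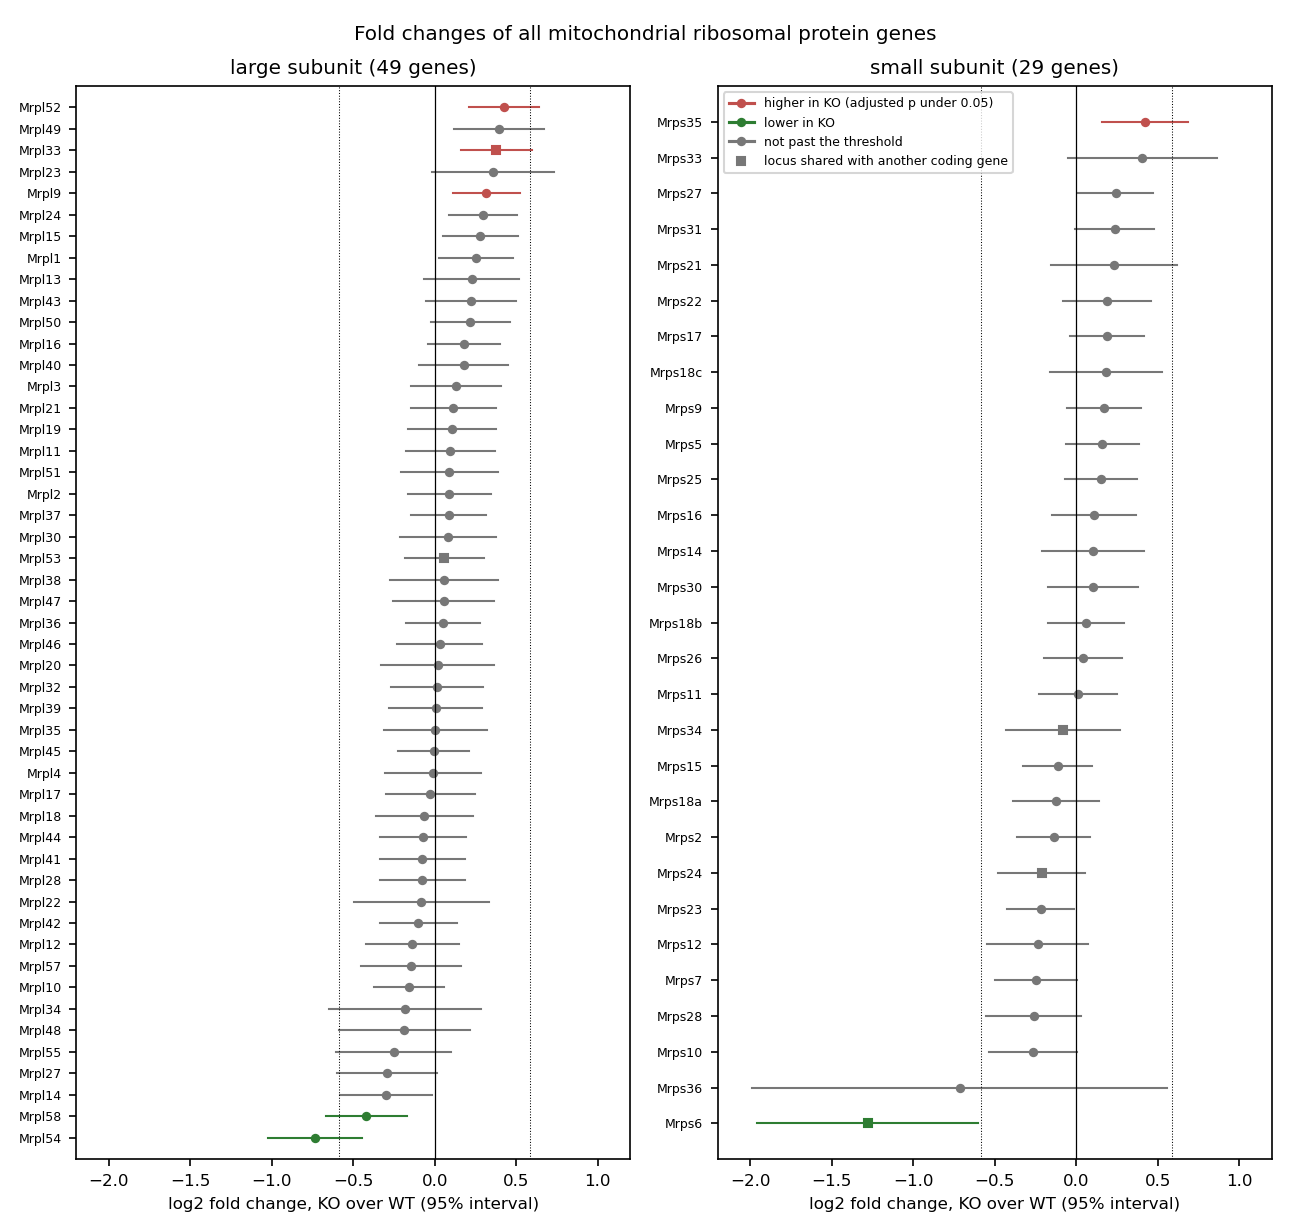
Log2 fold change, KO over WT, with its 95% interval for each of the 49 large-subunit (left) and 29 small-subunit genes (right); dotted lines mark 1.5-fold, and squares are loci that share fragments with another coding gene. Red marks the 4 genes higher and green the 3 genes lower in KO at an adjusted p under 0.05, and 63 of the 78 intervals stay between the dotted lines.

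The summed level of the set was of the same order in both genotypes. All 78 genes together took 2258, 2309 and 2240 CPM in the KO libraries, against 2265, 2101 and 2494 CPM in the WT libraries, so the groups overlapped. The Mrps6 locus alone contributed 248 CPM to WT replicate 3. Without Mrps6 the sums were 2199, 2251 and 2150 CPM in KO and 2137, 1974 and 2246 CPM in WT. The large-subunit genes summed to 1427, 1457 and 1409 CPM in KO and 1372, 1253 and 1441 CPM in WT. The small-subunit genes without Mrps6 summed to 771, 793 and 741 CPM in KO and 765, 722 and 805 CPM in WT. In both subunits WT replicate 2 was the lowest of the 6 libraries, and the KO and WT ranges overlapped.

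Mrpl54, a large-subunit protein specific to mitochondria, fell in KO by 0.74 ± 0.12 on the log2 scale (adjusted p = 0.00796, edgeR). It lies at chr10:81264713-81266934 on the minus strand and no annotated gene overlaps it. Its level was 18.7, 22.0 and 21.7 CPM in KO, against 33.7, 31.1 and 39.2 CPM in WT. The KO libraries lay close together and all below the lowest WT library, with a KO mean at 60.0% of the WT mean. Per length it had 51.9 ± 4.62 FPKM in KO and 92.1 ± 11.8 FPKM in WT (SD, n = 3 each). Mrpl54 passed the threshold in all 17 alternative settings, among them the 6 fits that leave out 1 library (adjusted p = 0.0115 to 0.0466).

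Mrpl58, known as ICT1, is a peptidyl-tRNA hydrolase built into the large subunit that releases unfinished chains from stalled ribosomes. It fell in KO by 0.42 ± 0.11 on the log2 scale (adjusted p = 0.0362, edgeR), at chr11:115403752-115412674 on the plus strand. KO libraries had 16.4, 17.6 and 15.9 CPM, against 23.4, 20.5 and 22.8 CPM in WT libraries. The groups did not overlap. The antisense transcript Ict1os overlaps the locus, and without knowledge of strand its fragments cannot be told apart from those of Mrpl58.

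Mrps6, a small-subunit protein with a bacterial counterpart, stands for a locus rather than a gene. Mrps6 lies at chr16:92058270-92112227 on the plus strand. Its row also holds Slc5a3, the sodium-coupled myo-inositol transporter whose coding exon lies within Mrps6, so the fragments of both genes are in a single value. The locus had 59.6, 58.4 and 89.2 CPM in KO, against 128, 127 and 248 CPM in WT. Replicate 3 was the highest library in each genotype, and even the highest KO library stayed under the lowest WT library. The locus fell in KO by 1.28 ± 0.29 on the log2 scale (adjusted p = 0.0242, edgeR), to 41.2% of the WT mean. Without replicate 3 of both genotypes it fell by 1.11 ± 0.08 (adjusted p = 8.76e-09), and without WT replicate 3 alone by 0.89 ± 0.19 (adjusted p = 0.0202). It did not pass without the count filter (adjusted p = 0.117) or on FPKM with limma (adjusted p = 0.0626 to 0.121 in 3 settings), where the lower genes that passed were Mrpl54, Mrpl58 and, with the filter on low values, Mrpl27.

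Mrpl52, a large-subunit protein specific to mitochondria, was 38.2, 39.2 and 37.4 CPM in KO, against 30.5, 26.8 and 28.3 CPM in WT. The lowest KO library was well above the highest WT library, and the log2 fold change was 0.42 ± 0.09 (adjusted p = 0.0211, edgeR). The gene lies at chr14:54426909-54429756 on the plus strand with no annotated gene overlapping it. It was also among the most abundant members per length, with 189 ± 19.1 FPKM in KO and 156 ± 4.54 FPKM in WT (SD, n = 3 each).

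Mrps35, a small-subunit protein specific to mitochondria, had 22.6, 22.3 and 23.9 CPM in KO, against 17.5, 15.3 and 18.6 CPM in WT. Its groups did not overlap, with a log2 fold change of 0.42 ± 0.11 (adjusted p = 0.0428, edgeR). It lies at chr6:147042764-147073991 on the plus strand. Mrpl9, which has a bacterial counterpart, had 50.5, 50.6 and 45.7 CPM in KO, against 40.2, 37.6 and 40.0 CPM in WT. KO replicate 3 was the nearest to WT, and the log2 fold change was 0.32 ± 0.09 (adjusted p = 0.0497, edgeR), just inside the threshold. Mrpl9 lies at chr3:94443318-94451130 on the plus strand, and Oaz3 overlaps it on the other strand.

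Mrpl33, a short protein with a bacterial counterpart, lies at chr5:31596935-31664384 on the plus strand. It shares its row with Babam2, a subunit of a deubiquitinating complex of DNA repair. The locus had 115, 109 and 125 CPM in KO, against 93.6, 83.6 and 91.5 CPM in WT. The groups did not overlap, and the log2 fold change was 0.38 ± 0.09 (adjusted p = 0.0331, edgeR). Leaving out the 5 members whose row holds another coding gene (Mrps6, Mrps24, Mrps34, Mrpl33 and Mrpl53) left 5 genes past the threshold of 73, of which 3 were higher and 2 lower in KO. Mrps18c, Mrpl51 and Mrpl3 share their rows only with a microRNA or unclassified transcripts.

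**Figure D2:**
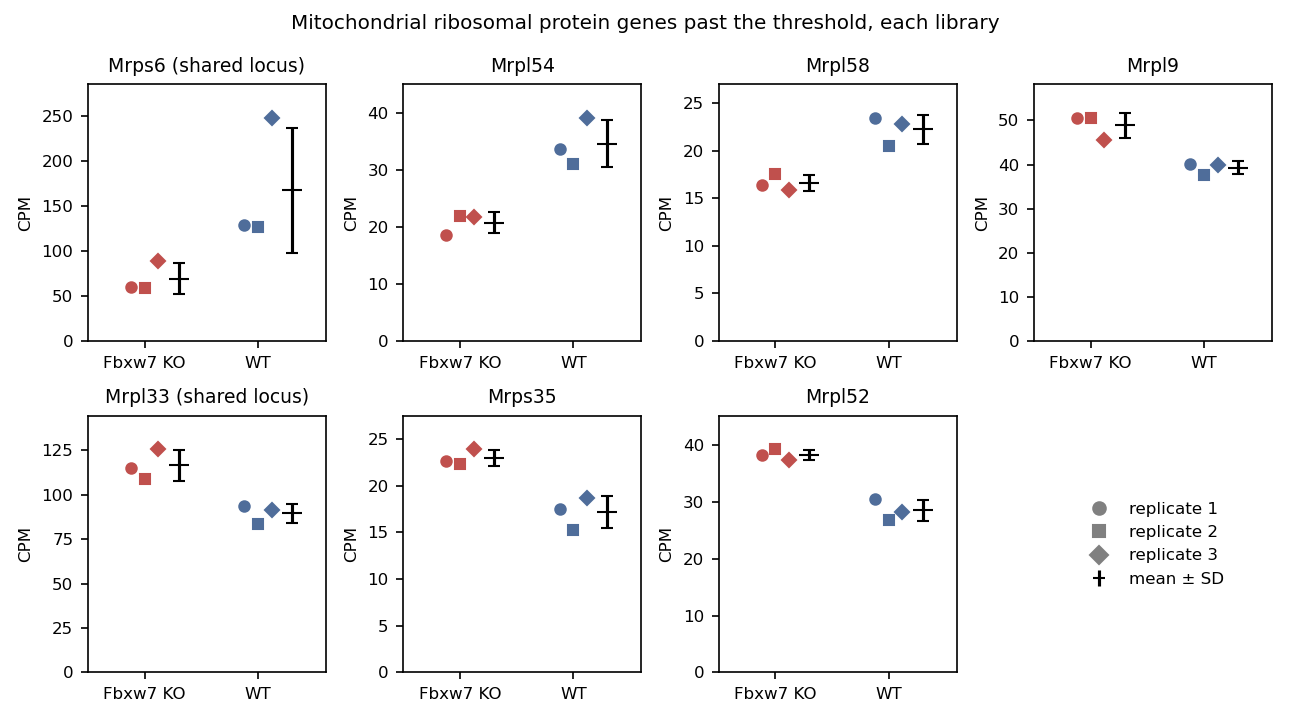
Level in CPM of the 7 genes past the threshold in each of the 3 Fbxw7 KO (red) and 3 WT libraries (blue), with mean ± SD in black and each y axis starting at 0. KO and WT libraries do not overlap for any of the 7, and WT replicate 3 of the Mrps6 locus reaches 248 CPM against 128 and 127 CPM in the other WT libraries.

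Of these 7 genes, only Mrpl54 passed in each of the 6 fits that leave out 1 library. A group then has 2 libraries, and the share of all genes past the threshold moved as well. Without KO replicate 1 or without KO replicate 2, no member passed as higher and only Mrpl54 as lower. Over all genes 6.79% and 8.50% passed in these fits, against 16.1% with all libraries. Without WT replicate 1 or without WT replicate 2, no member passed as higher and Mrpl54 and Mrps6 passed as lower. The shares of all genes were 7.56% and 7.39%. Without KO replicate 3, 5 members were higher and 2 lower, with 19.1% of all genes called. Without WT replicate 3, 4 were higher and 2 lower, with 18.5% of all genes called. Mrpl58 missed the threshold in each of the 6 fits that leave out a library (adjusted p = 0.0529 to 0.142). Mrps6 missed it without KO replicate 1 (adjusted p = 0.102) and without KO replicate 2 (adjusted p = 0.101). Among these 6 fits Mrpl52 passed only without KO replicate 3 (adjusted p = 0.0228) or WT replicate 3 (adjusted p = 0.0324), Mrpl33 only without WT replicate 3 (adjusted p = 0.0418), Mrps35 only without WT replicate 3 (adjusted p = 0.0286) and Mrpl9 only without KO replicate 3 (adjusted p = 0.0285). None of the 7 changed sign in any of the 17 alternatives.

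More members passed without replicate 3. With replicate 3 of both genotypes left out, 18 members passed, 14 higher and 4 lower in KO, while the share of all genes past the threshold was 41.3%. The 18 included all 7 named above. Among the 11 added were Mrpl49 (log2 fold change 0.52 ± 0.09, adjusted p = 0.000276, edgeR), Mrpl15 (0.32 ± 0.08, 0.00487), Mrpl24 (0.29 ± 0.08, 0.00936), Mrps27 (0.31 ± 0.09, 0.0118) and, on the lower side, Mrpl27 (−0.40 ± 0.12, 0.0127). The others were Mrpl43, Mrps31, Mrps30, Mrpl3, Mrpl50 and Mrps17, all higher in KO.

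Next in order among genes higher in KO, with all libraries and none past the threshold, came Mrpl49, Mrpl24 and Mrpl15. Mrpl49, specific to mitochondria, had 35.3, 37.7 and 29.4 CPM in KO and 26.4, 24.3 and 27.2 CPM in WT (log2 fold change 0.39 ± 0.12, adjusted p = 0.0615, edgeR). Mrpl24, with a bacterial counterpart, had 53.9, 54.5 and 50.6 CPM in KO and 46.3, 42.2 and 41.0 CPM in WT (0.30 ± 0.09, adjusted p = 0.0636). Mrpl15, also with a bacterial counterpart, had 52.4, 50.4 and 54.9 CPM in KO and 42.5, 39.7 and 47.8 CPM in WT (0.28 ± 0.10, adjusted p = 0.0997). KO and WT libraries did not overlap for any of these 3. Mrpl1, Mrps27, Mrps31 and Mrpl23 had log2 fold changes of 0.25, 0.24, 0.23 and 0.36 with adjusted p of 0.124 to 0.175, and Mrpl50 had 0.22 (adjusted p = 0.204).

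On the lower side the nearest to the threshold were Mrps23 and Mrpl14. Mrps23, specific to mitochondria, had 36.3, 38.6 and 36.3 CPM in KO and 43.6, 40.8 and 45.02 CPM in WT (log2 fold change −0.22 ± 0.09, adjusted p = 0.137, edgeR). Mrpl14, with a bacterial counterpart, had 15.3, 18.1 and 15.7 CPM in KO and 20.3, 18.4 and 21.8 CPM in WT (−0.30 ± 0.12, adjusted p = 0.138). Both had groups that did not overlap. Mrps7, Mrps10, Mrpl27 and Mrps28 had log2 fold changes of −0.25, −0.27, −0.29 and −0.26 with adjusted p of 0.160 to 0.203. Mrps24, whose row also holds Urgcp, Mrps12, of the decoding centre, and Mrpl10, of the stalk that binds translation factors, had −0.21, −0.24 and −0.16 with adjusted p of 0.256 to 0.291.

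By subunit, of 49 large-subunit genes 3 were higher and 2 lower in KO, with a median log2 fold change of 0.05, and of 29 small-subunit genes 1 was higher and 1 lower, with a median of 0.06. That is 10.2% of large-subunit and 6.90% of small-subunit genes past the threshold, against 16.1% of all genes. Of 46 genes with a bacterial counterpart 2 were higher and 1 lower (median 0.03), 6.52% in all, and of 31 specific to mitochondria 2 were higher and 2 lower (median 0.06), 12.9% in all. Some symbols do not match the place of the protein: Mrps18a and Mrps30 sit in the large subunit of the mammalian ribosome, and Mrps36 is a component of the 2-oxoglutarate dehydrogenase complex. Mrps30 had 36.1, 37.7 and 30.1 CPM in KO and 29.8, 32.5 and 34.6 CPM in WT, with a log2 fold change of 0.10 ± 0.12 (adjusted p = 0.607). Mrps36 was the least abundant member by counts, at 0.292, 0.740 and 0.375 CPM in KO and 1.19, 0.830 and 0.294 CPM in WT. Its groups overlapped, and its log2 fold change of −0.71 ± 0.55 (adjusted p = 0.423) had a 95% interval of −1.99 to 0.56.

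Mammals have 3 paralogs of the bacterial small-subunit protein S18. Mrps18a had 29.2, 32.6 and 25.8 CPM in KO and 31.2, 30.4 and 33.7 CPM in WT (log2 fold change −0.12, 95% interval −0.39 to 0.14). Mrps18b had 16.7, 17.2 and 16.3 CPM in KO and 16.5, 15.5 and 16.1 CPM in WT (0.06, −0.18 to 0.29). Mrps18c had 22.9, 24.1 and 30.5 CPM in KO and 25.01, 19.8 and 23.7 CPM in WT (0.18, −0.16 to 0.52). None passed the test, the groups overlapped for each, and the sign of Mrps18a and of Mrps18b was not stable between settings.

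Levels between genes were compared per length, in the authors' FPKM. The median member had 28.7 FPKM in KO and 27.3 FPKM in WT, and the range ran from 1.23 to 412 FPKM in KO and from 1.09 to 399 FPKM in WT. At the top stood Mrps18c, with 405, 413 and 419 FPKM in KO and 422, 375 and 399 FPKM in WT. By counts it ranked 48 of 78 in WT, and it had 16.7 FPKM per CPM, against a median of 1.10 over the members, so its place depends on the length the authors' software assigned. Mrpl33 followed at 232 ± 11.8 FPKM in KO and 197 ± 20.9 FPKM in WT (SD, n = 3 each), then Mrpl52, the Mrps6 locus at 58.1 ± 13.4 FPKM in KO and 134 ± 61.6 FPKM in WT, and Mrpl17 at 109 ± 7.85 FPKM in KO and 114 ± 22.9 FPKM in WT. In WT the neighbours Mrpl52 and Mrps6, and Mrps6 and Mrpl17, did not differ beyond their spread. Mrpl54 ranked 6 in WT and Mrps23 ranked 7, at 63.3 ± 9.27 FPKM in KO and 76.8 ± 12.7 FPKM in WT. At the bottom stood Mrpl23, at 1.65 ± 0.626 FPKM in KO and 1.09 ± 0.200 FPKM in WT, Mrps36, at 1.23 ± 0.641 FPKM in KO and 2.13 ± 1.22 FPKM in WT, and Mrpl48, at 3.34 ± 0.410 FPKM in KO and 3.64 ± 0.830 FPKM in WT.

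By CPM, the low end of the set coincided with annotated pseudogenes. A pseudogene copy of at least 95% identity over at least 300 bases was found in GENCODE M21 for 16 of the 78 genes, with 19 copies in all. All 6 members under 10 CPM in WT (Mrps36, Mrps33, Mrpl23, Mrpl22, Mrpl48 and Mrpl27) had such a copy, against 10 of the other 72. This group was chosen after its values were seen. By WT FPKM the match was looser. Mrps30, Mrpl47, Mrpl11, Mrpl1 and Mrpl19, ranked 70 to 74 of 78, had no such copy, and Mrpl27 ranked 56. Fragments from a gene and its copy cannot be assigned with certainty, so gene and copies were also summed. For 5 genes the copies held most of the summed WT level. Mrpl23, whose protein lines the exit tunnel, had 3.26, 2.99 and 3.34 CPM in KO and 2.40, 2.56 and 2.53 CPM in WT, while Mrpl23-ps1, identical to it over 507 aligned bases, had 12.3, 17.2 and 14.9 CPM in KO and 16.0, 13.6 and 14.5 CPM in WT. The gene alone did not overlap between genotypes, whereas the sum did, at 18.0 ± 2.37 CPM in KO and 17.2 ± 1.11 CPM in WT (SD, n = 3 each).

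Mrpl22 and its copy Gm6997 (97.1% identity) summed to 12.4 ± 0.860 CPM in KO and 12.8 ± 1.76 CPM in WT, with 75.8% of the sum in the copy in KO and 75.1% in WT. Mrpl48 and Mrpl48-ps (98.1%) summed to 9.95 ± 1.3 CPM in KO and 10.8 ± 1.19 CPM in WT. Mrps33 and Gm5776 (99.7%) summed to 6.86 ± 0.851 CPM in KO and 5.51 ± 1.06 CPM in WT. Mrps36 and its 4 copies, Mrps36-ps1 and Mrps36-ps2 foremost, summed to 2.62 ± 0.686 CPM in KO and 2.19 ± 0.595 CPM in WT. The groups overlapped for each of these sums. Mrpl27 and Gm6304 (98.9%) was an exception among these low members, at 11.2, 11.4 and 13.1 CPM in KO and 14.7, 14.2 and 14.4 CPM in WT, with no overlap. Among the other genes with a listed copy, the sums of Mrps18b, Mrps5 and Mrps25 did not overlap either. Taken singly, 37.7% of all genes did not overlap. None of the 7 genes past the threshold had a copy that met these limits.

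**Figure D3:**
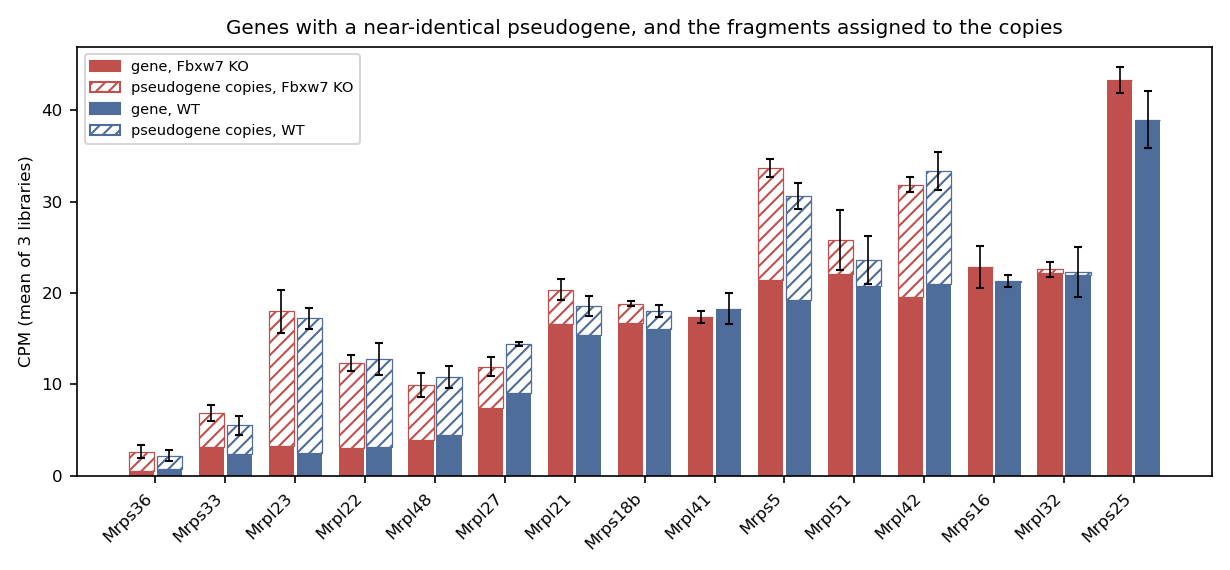
Mean CPM of 3 libraries for 15 genes with a near-identical pseudogene listed in the tables, Fbxw7 KO left of WT, with the gene's own level filled and its pseudogene copies hatched; error bars are the SD of the sum. For Mrpl23, 82.2% of the sum in KO and 85.5% in WT lie in the copy.

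Many members lie head to head with another gene. In GENCODE M21, 23 of the 78 (29.5%) had a coding gene starting within 1000 bases on the opposite strand and pointing away, with at most 200 bases of overlap, against 7.94% of all 21951 coding genes. The partners of all 23 were tested, and 3 passed the threshold (13.0%, against 16.1% of all genes), 2 higher and 1 lower in KO. Member and partner had fold changes of the same sign in 14 of the 23 pairs, a share that was not compared with other gene pairs. The row of Eme2, partner of Mrps34, also names Mapk8ip3. That of Hira, partner of Mrpl40, also names 2510002D24Rik and Gm28539, so these values are not of the partner alone.

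Mrpl54 and Apba3, an adaptor of the X11 family, start 26 bases apart and moved in opposite directions. Apba3 had 34.9, 38.4 and 31.8 CPM in KO, against 22.5, 28.1 and 25.1 CPM in WT, a log2 fold change of 0.47 ± 0.12 (adjusted p = 0.0363, edgeR). Each gene of the pair had groups that did not overlap, Mrpl54 lower and Apba3 higher in KO. Mrpl44, whose protein belongs to the ribonuclease III family, overlaps the start of Wdfy1, an endosomal adaptor, by 125 bases. Wdfy1 fell in KO by 0.76 ± 0.12 (53.1, 50.3 and 63.4 CPM in KO, against 90.2, 87.9 and 104 CPM in WT; adjusted p = 0.00589), while Mrpl44 had a log2 fold change of −0.07 ± 0.11 (adjusted p = 0.704). Mrpl49 starts 59 bases from Fau, a fusion of a ubiquitin-like protein and a cytosolic ribosomal protein, which rose by 2.47 ± 0.31 (adjusted p = 0.00252) at 5.99, 6.07 and 5.24 CPM in KO and 1.597, 0.797 and 0.719 CPM in WT. Fau is known to have processed pseudogenes, so its low gene-level value is uncertain. In 1 pair both genes are members: RefSeq places the starts of Mrps11 and Mrpl46 on chromosome 7 at 42 bases from each other. Mrps11 had a log2 fold change of 0.01 ± 0.10 and Mrpl46 of 0.03 ± 0.11. Their GENCODE models overlap more than the limit used, so they are not among the 23.

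**Figure D4:**
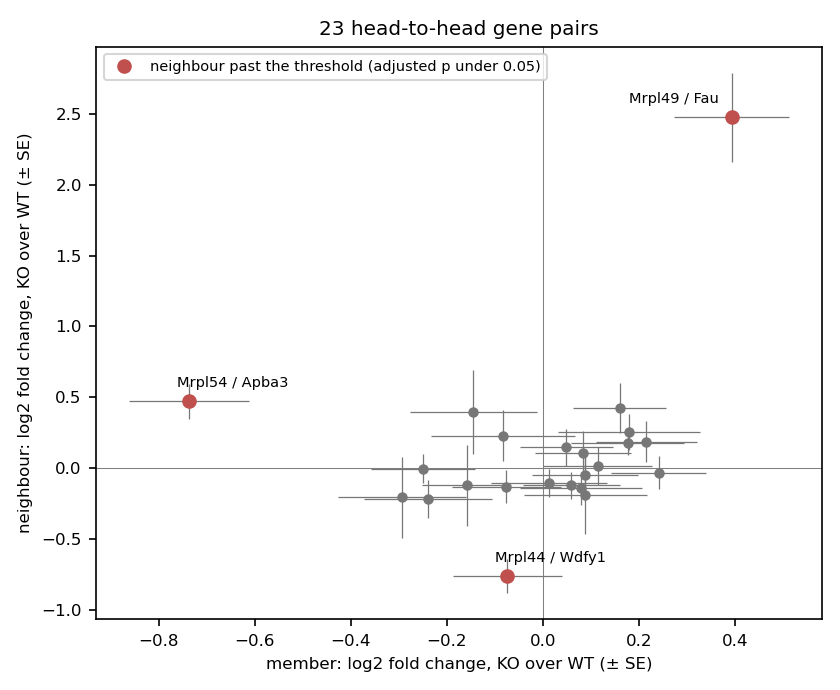
Log2 fold change, KO over WT, of 23 mitochondrial ribosomal protein genes (x axis) and of the coding gene that starts next to each on the opposite strand (y axis), with standard errors. Red points are the 3 neighbours past the threshold: Fau and Apba3 higher and Wdfy1 lower in KO.

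Overlap with a coding gene on the opposite strand was found for 23 of the 78 members, including Mrpl9 and Mrpl33 among those past the threshold. Mrpl43 overlaps Twnk, the mitochondrial DNA helicase. Twnk rose in KO (29.8, 29.9 and 26.8 CPM in KO, against 19.0, 20.3 and 21.1 CPM in WT; log2 fold change 0.52 ± 0.10, adjusted p = 0.0137, edgeR), and Mrpl43 had a log2 fold change of 0.22 (adjusted p = 0.250). It is unknown whether reads were counted by strand, so opposite neighbours that overlap cannot be fully told apart.

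Of 5 mitochondrial ribosome subunits without an Mrp symbol, 2 were higher in KO and none lower, against 8.03% higher and 8.08% lower among all genes. The median log2 fold change was 0.26; the direction of so small a group was not tested, and 3 of the 5 did not pass. Dap3, a GTP-binding subunit also known as a death-associated protein, had 64.8, 65.5 and 67.4 CPM in KO, against 50.5, 47.0 and 52.5 CPM in WT (0.40 ± 0.08, adjusted p = 0.0191, edgeR). Ptcd3, an RNA-binding subunit with pentatricopeptide repeats, had 57.1, 49.4 and 61.6 CPM in KO, against 37.1, 34.4 and 45.2 CPM in WT (0.53 ± 0.13, adjusted p = 0.0354). Neither gene's groups overlapped in CPM. The Ptcd3 row also names Gm22486, and its FPKM did overlap, at 23.5, 77.5 and 24.9 in KO and 16.3, 101 and 19.4 in WT, with replicate 2 high in both. Aurkaip1, Chchd1 and Gadd45gip1 had log2 fold changes of 0.14, 0.24 and 0.26 and did not pass; Ict1 is listed as Mrpl58.

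Factors that build and serve the mitochondrial ribosome were counted in the same way, against 16.1% of all genes called. Of 25 assembly factors 1 was higher and 1 lower (8% called), with a median log2 fold change of −0.005. Mpv17l2, an inner-membrane protein needed for ribosome assembly, fell in KO by 0.78 ± 0.12 (15.0, 17.1 and 13.3 CPM in KO, against 24.4, 26.7 and 26.8 CPM in WT; adjusted p = 0.00611). Tfb1m, which methylates the small ribosomal RNA, rose by 0.56 ± 0.16 (6.43, 5.06 and 5.90 CPM in KO, against 3.92, 4.17 and 3.74 CPM in WT; adjusted p = 0.0497). Of 18 translation factors none was higher and 1 was lower (5.56% called, median 0.10): the release factor Mtrf1l fell by 0.59 ± 0.13 (8.83, 8.36 and 10.6 CPM in KO, against 14.2, 13.6 and 14.2 CPM in WT; adjusted p = 0.0220). Of 20 genes for mitochondrial DNA and RNA maintenance Twnk alone was higher and none lower (5% called, median 0.10).

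Among 11 regulators of mitochondrial biogenesis, Ppargc1b, a coactivator of NRF1 and of oestrogen-related receptors, was higher in KO and none was lower (9.09% called, median 0.02). It had 2.76, 2.69 and 2.64 CPM in KO, against 1.53, 1.29 and 1.24 CPM in WT (log2 fold change 0.99 ± 0.18, adjusted p = 0.0115, edgeR). Nrf1 and Gabpa, whose motifs were searched above, had 0.17 ± 0.10 (adjusted p = 0.264) and −0.40 ± 0.15 (adjusted p = 0.121). Myc, a substrate of Fbxw7, had 86.8 ± 9.69 CPM in KO and 42.1 ± 22.7 CPM in WT (SD, n = 3 each; 1.04 ± 0.33, adjusted p = 0.0669). Over the 11 regulators the log2 fold changes ran from −0.93 to 1.04, 6 above 0 and 5 below. Of these, 3 differed by more than 1.5-fold (27.3%, against 22.5% of all genes).

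Nuclear genes for respiratory chain and ATP synthase subunits, which assemble with the products of the mitochondrial ribosome, were tested for 75 genes. Of these, 1 was higher and none lower (1.33% called, against 16.1% of all genes), with a median log2 fold change of 0.06. The gene past the threshold was Ndufa6, a complex I subunit, at 55.0, 60.4 and 56.5 CPM in KO, against 48.9, 43.3 and 40.5 CPM in WT (0.37 ± 0.10, adjusted p = 0.0427). Cytosolic ribosomal protein genes had a median of 0.26 over 74 genes, with 11 higher and none lower in KO (14.9% called). Among all genes 8.03% were higher and 8.08% lower. Rplp0, of the stalk, had 758, 810 and 575 CPM in KO, against 452, 366 and 380 CPM in WT (0.84 ± 0.16, adjusted p = 0.0112, edgeR). Many cytosolic ribosomal protein genes have near-identical pseudogenes, so their levels are less certain. No difference between these lists and the mitochondrial ribosomal set was tested. RNAs encoded by the mitochondrial genome, the ribosomal RNAs and the messages it translates, were not analysed here.

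**Figure D5:**
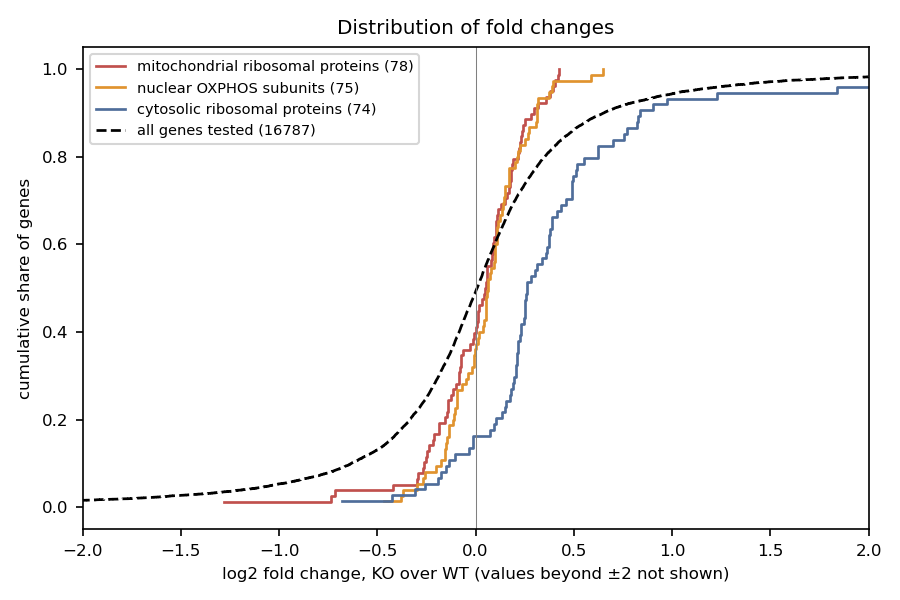
Cumulative share of genes (y axis) by log2 fold change, KO over WT (x axis, values beyond ±2 not shown), for 78 mitochondrial ribosomal protein genes, 75 nuclear respiratory chain and ATP synthase subunits, 74 cytosolic ribosomal protein genes and all 16787 genes tested. The curve of the mitochondrial ribosomal set is steeper than that of all genes and crosses the midline near 0 (median 0.05), while the cytosolic set lies to the right (median 0.26). The respiratory chain and ATP synthase set is about as steep, with quartiles of −0.10 and 0.17 against −0.12 and 0.18 for the mitochondrial ribosomal set.

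Within genotypes, the median coefficient of variation of the members over 3 libraries was 6.74% in KO and 7.73% in WT. Over all genes tested it was 12.8% in KO and 12.3% in WT, and over genes between the members' 5th and 95th percentile of level 10.6% in KO and 10.2% in WT. In WT, replicate 3 was the highest library for 53 of the 78 genes and replicate 2 the lowest for 61. In KO, replicate 3 was the lowest library for 42 genes, and replicate 2 the highest for 37. Deviations of a library from its group had a Spearman's rho with the GC content of the members' transcripts of 0.21, 0.51 and −0.42 in KO replicates 1, 2 and 3, and of −0.43, 0.34 and 0.03 in WT replicates 1, 2 and 3. By SD on the log2 scale, deviations were widest in WT replicate 3 (0.255), where rho was nearest 0. By the number of members deviating more than 20%, WT replicate 2 (18) and KO replicate 3 (16) stood above WT replicate 3 (11). The log2 fold change between genotypes had a rho of −0.39 (Pearson's r −0.33) with transcript GC content across the 78 genes, and 0.03 across 12228 coding loci. Genes of a library share its preparation and depth, so these values describe the libraries and are not tests, and the part of GC content in the fold changes was not tested. As RNA from a whole culture was measured, fewer cells with a transcript and less of it per cell cannot be told apart.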

How the data were processed

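RNA-seq tables of 6 libraries (3 Fbxw7 KO, 3 WT) were analysed. Per the submitters' processing notes, TopHat2 2.1.1, SAMtools 1.5, deepTools and Cufflinks 2.2.1 were used on mm10; neither annotation nor strand use is given there. The authors deposited estimated counts (expected fragments per locus) and FPKM (fragments per length and library total), both in a Cufflinks layout per the file headers. The deposited estimated counts of each library were about 89% whole multiples of a single step (tolerance 0.05), so each library had been scaled by a factor, and totals before scaling were 51152383 to 70625742 fragments. Software of this kind divides fragments shared by gene copies by estimate. Of 53323 loci, 1317 without a name (at most 3.13e-05% of fragments) and 12 whose estimate was skipped for excess fragments were left out.

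Estimated counts were rounded and tested with edgeR 4.0.16 (filterByExpr, TMM, robust quasi-likelihood, genotype only, two-sided), adjusted by Benjamini-Hochberg over 16787 genes. The SE is the fold change over the square root of F, and intervals are 95%. Duplicates were not marked by molecular identifiers. The 7 genes past the threshold had at least 921 estimated fragments in their lowest library, and all members at least 17.4. The fit was tested on simulated data. DESeq2 1.42.0, limma 3.58.1 on log2-scaled FPKM (pseudocount 1 or 0.1, loci averaging FPKM 1 or more), other scalings and filters, a replicate block and libraries left out were alternatives. Positions came from GENCODE M21 (mm10), promoters from RefSeq GRCm38.p6, and copies from BLAST 2.17.0 of the longest coding transcript against annotated pseudogenes. Named with values were the 12 members with the smallest adjusted p in each direction, the 3 highest and 3 lowest by WT FPKM in each subunit, the Mrps18 paralogs, Mrps36 and all in shared rows; from other lists, up to 3 genes past the threshold. Members named for neighbours, copies or replicate 3, and Mrps11 and Mrpl46, were chosen after values were seen. Nrf1, Gabpa, Myc, Aurkaip1, Chchd1 and Gadd45gip1 were named outside the rule for other lists. The members and lists were chosen with earlier results of these data known.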

Additional observations from a re-analysis of the deposited data

How the results depend on the processing

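Main values were 4 members higher, 3 lower and 7 called, a median log2 fold change of 0.05 and 2705 genes called in all. Library size alone as the scaling gave 8 higher and a median of 0.147 (0.105 over all genes). With no count filter 2 were higher and 1 lower, 3 in all. With replicate 3 of both genotypes left out, 14 were higher, 18 were called and 6993 genes passed in all. With limma, 0 were higher under each setting: log2(FPKM + 1) gave 3 called (Mrpl54, Mrpl58 and Mrpl27), a median of −0.022 and 1562 genes, log2(FPKM + 0.1) gave 3, −0.023 and 1615, and log2(FPKM + 1) without a filter gave 2, −0.022 and 1182. Leaving out 1 library gave 0 to 5 higher, 1 to 2 lower, 1 to 7 called, medians of −0.015 to 0.082 and 1169 genes (without KO replicate 1) to 3282 genes (without KO replicate 3) in all; a group then has 2 libraries. A fit with the replicate number as a block gave 2 higher, 4 called and 2356 genes; Mrps35, Mrpl9 and Mrpl58 missed the threshold. Whether the numbers pair the samples was not settled. Deviations of same-numbered libraries correlated at 0.056, 0.204 and 0.119 for replicates 1, 2 and 3, and those of other pairs at −0.225 to 0.169. KO replicates 2 and 3 correlated best with the WT library of the same number, and KO replicate 1 with WT replicate 2 (0.169).

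Over all 78 members and 17 alternatives, 27 changed sign at least once, none of them called in the main analysis, where their largest absolute log2 fold change was 0.18. Library size alone changed 9 signs, and none relative to the median of all genes, which it raised; Mrpl22, Mrps34 and Mrpl17 moved to 0.011, 0.011 and 0.070, but to −0.093, −0.094 and −0.035 relative to that median. Of the 37 members named with values, these also changed. Mrpl22 was 0.050 without replicate 3. Mrpl17 was 0.056 without replicate 3, and ran from −0.117 (without WT replicate 2) to 0.090 (without WT replicate 3). Mrps34 was 0.086 without replicate 3, and ran from −0.189 (without KO replicate 2) to 0.066 (without KO replicate 3). Mrps18a was 0.0017 without replicate 3. Mrps18b was −0.092 in limma on log2(FPKM + 1), with and without the filter, and −0.094 on log2(FPKM + 0.1). Mrpl53 ran from −0.0026 (without KO replicate 2) to 0.114 (without WT replicate 3). The cause was not tested for the changes other than those with library size. DESeq2 size factors, DESeq2's Wald test, a floor of 1 CPM in 3 libraries and counts divided by the library step changed no count of members by more than 1.5 times. Mrps36 and the members with copies are limited by depth and by shared fragments.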
